A study of Arabidopsis thaliana with 18 samples.

Results

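The 47 nuclear genes described here encode the light-harvesting and photosystem proteins of the chloroplast in Arabidopsis thaliana, with their soluble partners. They were listed by locus and not by a rule on measured values, although earlier results of these data were known. There are 6 LHCA genes (antenna of photosystem I). For photosystem II there are 9 LHCB genes of its trimeric antenna and 5 LHCB genes of its minor antenna. The rest are 10 photosystem I subunits, 10 photosystem II genes, 2 plastocyanins and 5 Rubisco genes (4 small subunits and Rubisco activase). All 47 were found among 37899 annotated genes of the 5 nuclear chromosomes, 27444 of which are protein-coding. Photosystems I and II turn light into electron flow across the thylakoid membrane, and antenna proteins bind chlorophyll and pass excitation to them. Plastocyanin is the copper protein that carries electrons to photosystem I, and Rubisco fixes carbon dioxide with the help of its activase. These nuclear genes are known for very abundant transcripts in green tissue, and acetylated histone H3 is typically found near the start of transcribed plant genes.

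Chromatin of whole 10-day-old Col seedlings, kept on MS-agar plates at 23 °C in a day of 16 h light and 8 h dark after a cold treatment, was precipitated with antibodies to histone H3 acetylated at lysine 9 (H3K9ac) or lysine 14 (H3K14ac) and sequenced. The 3 genotypes were the wild type (WT), hda9-1, which is deficient in the histone deacetylase HDA9, and pwr-2, which carries a lesion in POWERDRESS, a SANT-domain protein. Each mutant is represented by 1 allele. H3K9ac has 2 libraries per genotype and H3K14ac has 1, so no H3K14ac value has a replicate check. The H3K9ac replicates are called biological, but nothing says that they were separate plantings, so p-values measure only the spread between these samples. The comparisons of hda9-1 and of pwr-2 share the same WT libraries.

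The reads inside peaks differed between genotypes. The WT H3K9ac libraries held 1.95 and 2.22 M (mega, M), the hda9-1 ones 12.3 and 18.17 M, the pwr-2 ones 3.76 and 8.87 M, and the H3K14ac libraries 0.668 to 1.09 M. The groups do not overlap, so depth and genotype cannot be told apart for peak cover or for reads in peaks. A missing WT peak means only that none was called at that depth. The mutated loci, HDA9 (AT3G44680) and PWR (AT3G52250), had H3K9ac peaks in all 6 libraries, which does not check the labels, because a peak does not show whether the gene is intact. Markers of other tissues were mostly without H3K9ac: 5 of 10 root genes were without one in each of the 6 libraries and 1 (SCR) was marked in all 6, 6 of 7 seed storage genes had no peak, and both pollen genes had none. In whole seedlings, fewer cells that carry a mark and less of the mark per cell cannot be told apart.

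H3K9ac covered nearly all of the photosynthesis genes, and often the whole gene. A gene was counted as marked in a library where 50% or more of the 500 bp at 1 of its ends lay inside peaks, because the annotation used gives no strand. By that rule 42 of the 47 genes (89.4%) were marked in all 6 H3K9ac libraries, against 32.1% of all genes and 39.8% of protein-coding genes. The 5 others all belong to the antenna of photosystem II, namely LHCB1.2, LHCB1.3, LHCB1.4, LHCB2.2 and LHCB4.3. All 6 LHCA genes, all 10 genes of each photosystem, both plastocyanins and all 5 Rubisco genes were marked throughout.

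**Figure D1:**
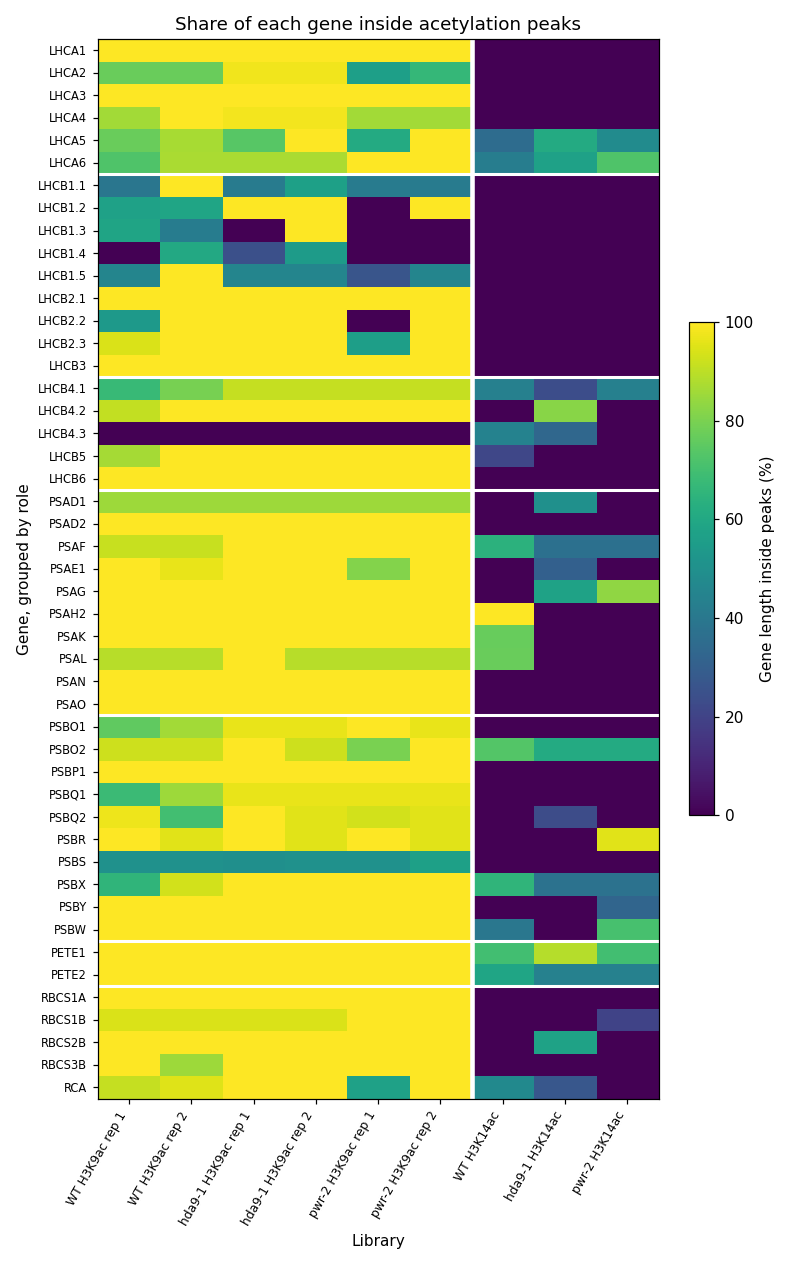
Percent of each gene's length inside peaks (colour, 0 to 100%) for the 47 photosynthesis genes (rows, white lines between roles) in the 6 H3K9ac and 3 H3K14ac libraries (columns). The H3K9ac columns are mostly at 100%, while 23 genes are at 0 in all 3 H3K14ac columns.

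The cover was wide. The median share of a photosynthesis gene inside H3K9ac peaks was 94.4% in WT replicate 1 and the full length in the other 5 libraries. For the 10924 protein-coding genes marked in all 6 libraries the same median was 52.9% and 58.1% (WT), 58.5% and 67.1% (hda9-1), and 48.1% and 58.1% (pwr-2). Part of this gap goes with gene length, since the photosynthesis genes are short (median 1404 bp, against 2399 bp). Among the 7747 such genes of 720 to 3207 bp, which is the length range of the photosynthesis genes, the medians were 64.3% and 69.6% (WT), 74.4% and 85.3% (hda9-1), and 57.4% and 71.5% (pwr-2). The peaks themselves were also wider, with a median of 3500 to 4900 bp across the 6 libraries, against 2000 to 2800 bp for the 10924 genes. Such peaks run into neighbours: a peak over a photosynthesis gene touched a median of 2 genes in WT replicate 1.

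PSBS (AT1G44575), the photosystem II protein needed for rapid energy dissipation in strong light and the longest of the 47 at 3207 bp, was covered only in part. WT peaks took in 1627 and 1627 bp, hda9-1 peaks 1600 and 1627 bp, and pwr-2 peaks 1627 and 1827 bp. These values are alike in all libraries and leave much of the gene uncovered. LHCB3 (AT5G54270), a trimer protein of 1404 bp, was covered over its full length in all 6 libraries, as were LHCA1 and LHCA3 of the photosystem I antenna and RBCS1A, a Rubisco small subunit.

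The density of H3K9ac reads, given as reads per kb of peak and per M reads in the peaks of that library, ran over a wide range in WT. PSBO2 (AT3G50820), a protein of the oxygen-evolving complex, was highest on average with 70.9 and 65.1 (68.02 ± 4.1, mean ± SD, n = 2). PSBQ2 (AT4G05180), another protein of that complex, had 52.5 and 79.8, so its replicates lay far apart. PSAN (AT5G64040), a lumenal subunit of photosystem I, had 60.6 and 66.4. LHCA3 (AT1G61520) had 66.3 and 56.7, and PSAH2 (AT1G52230), a photosystem I subunit at the docking side of the mobile antenna, had 63.1 and 57.3. PSBO2 lay above PSAH2 in both replicates, and every other pair among these 5 overlapped.

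At the other end stood antenna genes. LHCB4.3 (AT2G40100), a minor antenna gene also called LHCB8, had no H3K9ac peak in any of the 6 libraries. LHCB1.4 (AT2G34430) had no peak in WT replicate 1 and a density of 32.4 in replicate 2. LHCB2.3 (AT3G27690) had 32.1 and 28.4, and LHCB2.2 (AT2G05070) had 31.5 and 32.6. LHCB4.2 (AT3G08940) had 34.4 and 35.4. By role, the median density was highest for photosystem I (58.2 and 54.2 in WT) and lowest for the trimeric LHCB genes (40.9 and 34.4). Of the 46 neighbouring pairs in the WT order, 2 did not overlap in their replicates, so the exact rank of a gene within the order is not resolved by 2 libraries.

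**Figure D2:**
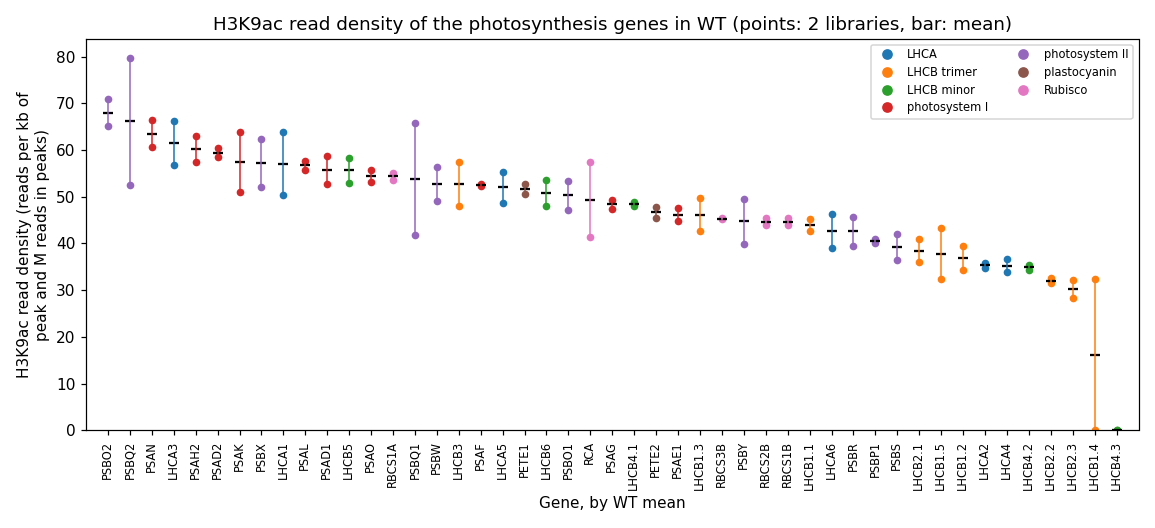
H3K9ac read density in WT (reads per kb of peak and per M reads in peaks) for the 47 genes in order of their mean, coloured by role, with 1 point per library and a black bar at the mean. PSBO2 is at the left with a mean of 68.02, and the right end is held by LHCB genes, with LHCB4.3 at 0 in both libraries.

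Over those of the 47 genes with a peak in the library (42 to 46 genes), the median density was 47.9 and 49.3 (WT), 40.4 and 36.2 (hda9-1), and 41.6 and 41.4 (pwr-2). The mutant values are below those of WT, but so are the medians of the 10924 protein-coding genes, which ran from 35.0 in hda9-1 replicate 2 to 45.3 in WT replicate 1. The libraries with more reads had the lower densities, so raw densities are not compared between genotypes.

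H3K9ac cover was uneven over the tandem LHCB1 copies. LHCB1 encodes the most abundant chlorophyll a/b-binding protein, and its copies LHCB1.1, LHCB1.2 and LHCB1.3 lie side by side in 1 merged H3K9ac region (chromosome 1, 10471601 to 10479600, TAIR10, touching 5 genes). LHCB1.3 (AT1G29930) was covered over 716 and 516 bp (WT), 0 and 1230 bp (hda9-1) and 0 and 0 bp (pwr-2). It was marked in both WT libraries and in neither pwr-2 library. A peak beside LHCB1.3 was present in both pwr-2 libraries. It ran from 4600 bp to 6200 bp (replicate 1, 382 reads) or 6000 bp (replicate 2, 701 reads) from the left end of the region. LHCB1.3 begins at 6284 bp, and the WT peaks ran on to 7000 and 6800 bp, so the difference lies in where a peak ends. Peak positions move in steps of 200 bp. LHCB1.2 (AT1G29910) was covered over 702 and 721 bp (WT), 1223 and 1223 bp (hda9-1) and 0 and 1223 bp (pwr-2), so 1 pwr-2 library had no peak and the other had full cover. LHCB1.1 (AT1G29920) had 514 and 1314 bp (WT), 545 and 745 bp (hda9-1) and 545 and 545 bp (pwr-2), and was marked in all 6.

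The second LHCB1 pair behaved in a similarly uneven way. LHCB1.4 was covered over 0 and 794 bp (WT), 318 and 718 bp (hda9-1) and 0 and 0 bp (pwr-2), while its neighbour LHCB1.5 (AT2G34420) was covered over 477 and 1045, 477 and 477, and 277 and 477 bp and was marked in all 6. LHCB2.1 (AT2G05100) was fully covered at 1491 bp in every library. Its close copy LHCB2.2 had 672 and 1239 bp (WT), 1239 and 1239 bp (hda9-1) and 0 and 1239 bp (pwr-2). These copies are nearly identical in coding sequence. The sources used here do not say how reads that map to several copies were placed, so the split of reads between copies is uncertain. Its part in these cover values, in the densities of LHCB1 and LHCB2 genes and in their lack of H3K14ac peaks was not tested.

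**Figure D3:**
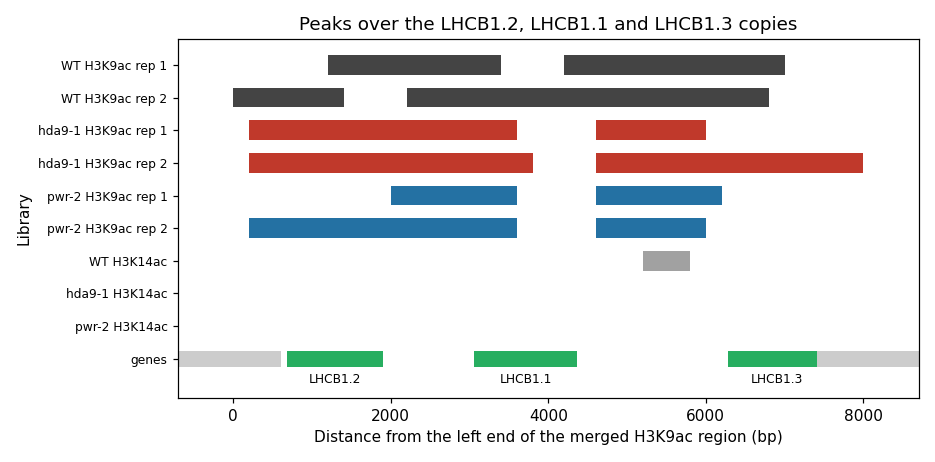
Peaks (bars) over the LHCB1.2, LHCB1.1 and LHCB1.3 copies (green) and their neighbours (grey), by distance in bp from the left end of the merged H3K9ac region, in the 6 H3K9ac and 3 H3K14ac libraries. A peak reaches the right-hand copy LHCB1.3 in both WT libraries and in hda9-1 replicate 2, and ends short of it in the other H3K9ac libraries. The H3K14ac libraries hold no peak over any of the 3 copies.

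In contrast to the LHCB copies, the 3 tandem Rubisco small subunit genes were evenly covered. RBCS2B (AT5G38420) was fully covered at 1165 bp in all 6 libraries. RBCS1B (AT5G38430) was covered over 2034 to 2154 bp, and RBCS3B (AT5G38410) over its full 1655 bp in every library except WT replicate 2, with 1413 bp. In WT replicate 1 the 3 genes shared 1 peak and so a single density, 45.4, and their values are not independent. How reads that map to several of these copies were placed is not known either.

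Few photosynthesis genes crossed from marked to unmarked between genotypes in H3K9ac. A gene was called gained where both mutant libraries and neither WT library marked it, and lost in the reverse case. In hda9-1 none was gained or lost, where 3.83% of all genes were gained and 0.438% lost. In pwr-2 none was gained and 1, LHCB1.3, was lost, with 2.08% and 0.599% of all genes. That is 1 of the 45 that could be lost, against 1.69% of all genes that could, and 0 of 45 in hda9-1, against 1.24%. Only 1 of the 47 (LHCB4.3) was unmarked in both WT libraries and could be gained at all, so the absence of gains says little. LHCB1.3 is 1 of the tandem copies above, and in both pwr-2 libraries a peak ended just short of it. Where a mark needed 50% of the whole gene, 0 genes were gained or lost in pwr-2.

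Read counts were then compared over merged H3K9ac regions with edgeR's quasi-likelihood test and Benjamini-Hochberg adjustment over the 8332 regions that had a peak in all 6 libraries. All of the photosynthesis genes except LHCB4.3 fell in 41 of these regions, with the LHCB1.1 to LHCB1.3, LHCB1.4 and LHCB1.5, and RBCS1B to RBCS3B copies sharing a region each. The regions are wide, with a median of 6000 bp and 3 genes each, against 2800 bp over all regions, so a region's value also holds reads of neighbours. No region of a photosynthesis gene passed an adjusted p of 0.05 in hda9-1 (smallest adjusted p 0.293) or pwr-2 (0.272) against WT, and 0.0% of all 8332 regions did in either comparison. At an unadjusted p under 0.05 there were 3 of the 41 in hda9-1 and 4 in pwr-2, with 12.2% and 14.7% of all regions. DESeq2 called none of the 41 either, with 1.85% of regions called in hda9-1 and 2.8% in pwr-2, among those it gave an adjusted p. Between hda9-1 and pwr-2 none of the 41 was called (smallest adjusted p 0.998, 0 at an unadjusted p under 0.05) and 0.0% of all regions were.

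Most of the log2 changes had the same sign, although none passed. The edgeR log2 change was negative in 30 of the 41 regions in hda9-1 (median -0.151, range -0.452 to 0.258), where 51.0% of all regions were negative with a median of -0.008. In pwr-2 it was negative in 29 of the 41 (median -0.114, range -0.51 to 0.703), where 50.4% of all regions were negative with a median of -0.002. Both hda9-1 libraries lay below both WT libraries in 19 of the 41 regions, which 23.4% of all regions did, and above in 1, which 23.0% did. For pwr-2 the count was 11 below and 2 above, with 21.4% and 21.6% of all regions. The 19 regions are 46.3% of the 41 and the 11 are 26.8%, and since they share WT libraries, they are not independent counts. Every mutant library also held more reads in peaks than either WT library, so depth and genotype cannot be told apart for these changes.

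Wide regions and regions with many reads did not in general lie below WT more often. With all regions split into 4 groups by width, the widest group holds 28 of the 41. Of this group 19.2% lay below WT in hda9-1 and 18.5% in pwr-2, with 13 and 6 of the 28, and the group's median log2 changes were 0.052 and 0.036. In the group with the most reads, which holds 33 of the 41, 21.4% lay below WT in hda9-1 and 19.4% in pwr-2, with 18 and 10 of the 33. Regions were not split by read density, and the part of depth was not tested. Per covered bp, where reads are divided by each library's covered length, 38 of the 41 were negative in hda9-1 (median -0.092) and 33 in pwr-2 (median -0.106). That measure is not free of peak width, as the LHCA6 region below shows. By that measure both mutant libraries lay below WT in 15 regions in hda9-1 and 12 in pwr-2, with 23.1% and 21.3% of all regions, and above in 1 and 2, with 22.7% and 19.8%. Per covered bp, 6 of the 41 had an unadjusted p under 0.05 in each mutant, with 11.3% of all regions in hda9-1 and 13.6% in pwr-2. None passed the adjusted p, which 0.012% of all regions did in either mutant, and 0.0% between the mutants.

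**Figure D4:**
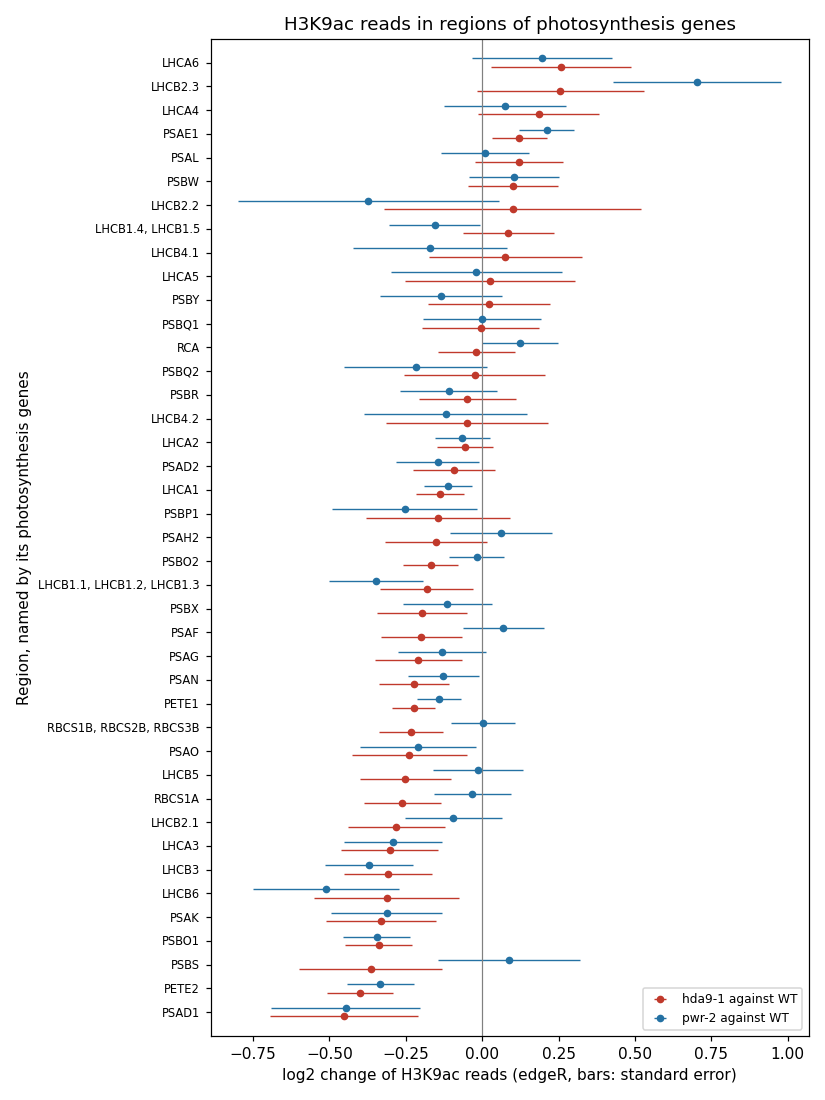
edgeR log2 change of H3K9ac reads in hda9-1 (red) and pwr-2 (blue) against the shared WT libraries for the 41 regions of photosynthesis genes, with standard errors as bars. Most points lie left of 0 (30 of 41 in hda9-1 and 29 of 41 in pwr-2), and the adjusted p of every region is above 0.05.

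The regions with the largest negative values belonged to electron carriers, photosystem subunits and the antenna. PETE2 (AT1G20340, chromosome 1, 7037201 to 7044200, 3 genes), the major plastocyanin isoform, had 352.1 and 362.5 (WT), 280.4 and 261.0 (hda9-1) and 280.2 and 287.0 (pwr-2) CPM (reads per M reads of the regions tested, scaled by TMM). Both mutants lay below WT without overlap. The log2 change was -0.40 (SE 0.108, edgeR adjusted p 0.293) in hda9-1 and -0.33 (SE 0.109, edgeR adjusted p 0.273) in pwr-2. Per covered bp it was smaller, at -0.122 (SE 0.102) and -0.161 (SE 0.103), and both mutants then overlapped WT. PSBO1 (AT5G66570, chromosome 5, 26562801 to 26571400, 7 genes), the main manganese-stabilising protein of photosystem II, had 368.2 and 355.5 (WT), 288.9 and 283.1 (hda9-1) and 273.1 and 296.4 (pwr-2). Here too neither mutant overlapped WT, and the edgeR log2 changes were -0.339 (SE 0.109) and -0.345 (SE 0.109). Per covered bp the PSBO1 change was -0.018 in hda9-1 and -0.155 in pwr-2. Covered lengths in its region were 7200 and 6000 bp in WT and 6200 bp in all 4 mutant libraries. These changes are of regions that hold several genes. A fit over genes assigned reads by covered length. There PSBO1 had 0.133 (SE 0.135) in hda9-1 and 0.127 (SE 0.136) in pwr-2, and PETE2 had -0.089 (SE 0.085) and -0.019 (SE 0.086).

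LHCB6 (AT1G15820, chromosome 1, 5444401 to 5451000, 6 genes), a minor antenna protein, was fully covered in every library. Its region's read density, relative to the median density over the regions tested in each library, was 1.061 and 1.191 (WT), 0.791 and 0.889 (hda9-1) and 0.741 and 0.827 (pwr-2), so neither mutant overlapped WT. In reads its region had 234.2 and 321.1 (WT), 227.6 and 219.6 (hda9-1) and 154.1 and 234.7 (pwr-2) CPM, so pwr-2 overlapped WT. The log2 change of reads was -0.51 (SE 0.239, edgeR adjusted p 0.376) in pwr-2 and -0.31 (SE 0.237, edgeR adjusted p 0.642) in hda9-1. In pwr-2 the change was -0.247 with pwr-2 replicate 1 left out and -0.847 with pwr-2 replicate 2 left out. Leaving out WT replicate 2 gave -0.265. Per covered bp it was -0.52 (SE 0.118, edgeR adjusted p 0.206) in pwr-2 and -0.42 (SE 0.116, edgeR adjusted p 0.275) in hda9-1, the smallest adjusted p among the 41 in both. In a fit over genes instead of regions, LHCB6 had -0.49 (SE 0.0988, edgeR adjusted p 0.165) in pwr-2 and -0.51 (SE 0.0981, edgeR adjusted p 0.156) in hda9-1.

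PSAD1 (AT4G02770, chromosome 4, 1227801 to 1230000, 2 genes), the ferredoxin-docking subunit of photosystem I, had 88.99 and 128.8 (WT), 82.69 and 76.68 (hda9-1) and 71.54 and 88.07 (pwr-2) CPM. Its log2 changes were -0.45 (SE 0.242) in hda9-1 and -0.45 (SE 0.244) in pwr-2. All 4 mutant libraries lay below WT, the nearest of them just so, and the WT replicates lay far apart. The log2 changes were -0.153 and -0.155 when WT replicate 2 was left out, -0.686 and -0.688 when WT replicate 1 was, and -0.134 and -0.268 per covered bp. LHCB3 (chromosome 5, 22035401 to 22040400, 3 genes) had 239.2 and 216.7 (WT), 190.0 and 177.9 (hda9-1) and 167.5 and 184.8 (pwr-2). Its edgeR log2 changes were -0.31 (SE 0.144) and -0.37 (SE 0.145), with neither mutant overlapping WT, and -0.089 and -0.132 per covered bp, where both overlapped. The PSBS region (chromosome 1, 16871601 to 16876800) had 174.1 and 139.8 (WT), 129.9 and 113.7 (hda9-1) and 197.6 and 136.3 (pwr-2), so that hda9-1 lay below WT (log2 change -0.365, SE 0.233) and pwr-2 overlapped it. The PSBS change in hda9-1 was -0.192 when WT replicate 1 was left out, and -0.023 per covered bp, where hda9-1 overlapped WT. In the fit over genes PSBS had 0.0825 (SE 0.1826) in hda9-1, so its sign differed from that of its region. In hda9-1 and pwr-2 that fit gave -0.247 and -0.268 for PSAD1, and -0.193 and -0.122 for LHCB3. The LHCB2.2 region (chromosome 2, 1798601 to 1801600) had 47.83 and 86.89 (WT), 74.08 and 70.71 (hda9-1) and 31.3 and 71.31 (pwr-2), with every genotype overlapping. Its log2 change of -0.373 (SE 0.427) in pwr-2 turned positive without pwr-2 replicate 1 (0.074) or WT replicate 2 (0.127). LHCB2.2 itself had -0.776 (SE 2.211) in pwr-2 in the fit over genes.

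The positive values were fewer. LHCB2.3 (chromosome 3, 10253001 to 10258400, 4 genes) had 83.43 and 100.9 (WT), 135.4 and 85.04 (hda9-1) and 166.6 and 133.9 (pwr-2) CPM. It was the highest of the 41 in pwr-2, with both libraries above WT and a log2 change of 0.70 (SE 0.276, edgeR adjusted p 0.318), while hda9-1 overlapped WT (0.256, and -0.117 without hda9-1 replicate 1). Per covered bp the pwr-2 value was 0.291 (SE 0.181). In the fit over genes, LHCB2.3 itself had -0.153 (SE 0.218) in pwr-2 and 0.032 (SE 0.217) in hda9-1. In pwr-2 replicate 1 the peak over the gene held 154 of the region's 559 reads. PSAE1 (AT4G28750, chromosome 4, 14199001 to 14209800, 5 genes), a stromal subunit of photosystem I, had 415.5 and 403.5 (WT), 450.8 and 440.3 (hda9-1) and 465.9 and 481.7 (pwr-2). It was the only region of the 41 with reads above WT in both mutants. The log2 changes were 0.12 (SE 0.089) and 0.21 (SE 0.09), and -0.021 and 0.035 per covered bp. PSAE1 itself had -0.1 (SE 0.0997) and -0.0994 (SE 0.1003) in the fit over genes.

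LHCA6 (AT1G19150, chromosome 1, 6606401 to 6614600, 8 genes), a minor antenna protein that links photosystem I to the NDH complex, depended on the measure. Its region had 151.8 and 238.2 (WT), 250.1 and 216.8 (hda9-1) and 206.6 and 240.5 (pwr-2) CPM. The log2 change of reads was 0.26 (SE 0.228) in hda9-1 and 0.20 (SE 0.229) in pwr-2, whereas per covered bp it was -0.35 (SE 0.136) and -0.42 (SE 0.138). Without WT replicate 1 the changes of reads were -0.022 and -0.09. LHCA6 itself had -0.139 (SE 0.215) and -0.006 (SE 0.216) in the fit over genes. The peaks in the region took in 3200 and 4000 bp (WT) and 5400 to 7400 bp (mutants). LHCA4 (AT3G47470, chromosome 3, 17492001 to 17495600), a main antenna protein of photosystem I, had 95.11 and 120.3 in WT and 127.3 and 117.7 in hda9-1, which overlap. It had a log2 change of reads of 0.19 (SE 0.198) in hda9-1 and of 0.48 (SE 0.182) per covered bp, the highest of the 41 by that measure. The change of reads was 0.033 with WT replicate 1 left out and 0.372 with WT replicate 2 left out. LHCA4 itself had 0.447 (SE 0.151) in hda9-1 in the fit over genes. The RCA region, with Rubisco activase, had a change of 0.12 (SE 0.125) in pwr-2, with 347.6 and 420.0 in WT against 397.4 and 439.1, which overlap. The change was -0.006 without WT replicate 1. RCA itself had -0.346 (SE 0.262) in pwr-2 in the fit over genes.

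H3K14ac was found at a smaller share of these genes than of all protein-coding genes with H3K9ac, in 1 library per genotype and with no test. Of the 47 genes, 23 (48.9%) had no H3K14ac peak in any of the 3 libraries. The share was 48.7% over all genes and 36.9% over protein-coding genes. These 23 include all 9 trimeric LHCB genes and LHCA1 to LHCA4. The others are LHCB6 of the minor antenna, PSAD2, PSAN, PSAO, PSBO1, PSBP1, PSBQ1, PSBS, RBCS1A and RBCS3B. Among the 42 genes marked by H3K9ac in all 6 libraries, 13 (31.0%) were marked by H3K14ac in WT, 12 (28.6%) in hda9-1 and 12 (28.6%) in pwr-2. The same shares of the 10924 protein-coding genes marked by H3K9ac were 70.5%, 80.4% and 82.1%, and 71.8%, 80.8% and 81.9% in the length range of the photosynthesis genes. No H3K14ac peak at all was found at 45.2% of the 42 and at 6.0% of the 10924. A missing peak means that none was called at 0.668 to 1.09 M reads in peaks.

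**Figure D5:**
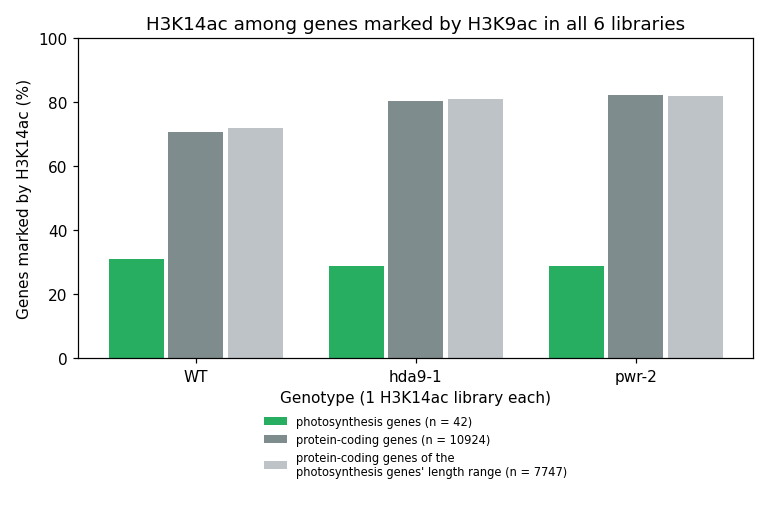
Percent of genes marked by H3K14ac in the 1 library of each genotype, for the 42 photosynthesis genes and for protein-coding genes marked by H3K9ac in all 6 libraries, the last also limited to the same length range. The photosynthesis genes are at 28.6% to 31.0% and the others at 70.5% to 82.1%.

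The gap was present at each level of H3K9ac. With the 10924 genes split into 4 groups by WT H3K9ac density, 63.6%, 71.5%, 73.0% and 73.7% were marked by H3K14ac in WT from the lowest to the highest group. The photosynthesis genes in these groups were marked in 0 of 7, 1 of 7, 2 of 8 and 10 of 20 cases. So 20 of the 42 stood in the densest group, and 10 of those 20 carried H3K14ac. The genes without an H3K14ac peak lay a median of 2493 bp from the nearest one in WT, and 8 of the 23 had one within 1000 bp in at least 1 library, such as PSAO (AT1G08380) at 267 bp in all 3.

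Where H3K14ac did reach these genes, its peaks did not always lie mostly inside the gene. An H3K14ac peak lying mostly inside the gene was found at 6 of the 42 genes in WT (14.3%), 9 in hda9-1 (21.4%) and 7 in pwr-2 (16.7%), against 60.2%, 69.3% and 67.0% of the 10924. Among genes with any H3K14ac peak these were 6 of 14, 9 of 15 and 7 of 13, against 76.4% of 8614, 78.6% of 9631 and 76.0% of 9631 genes (WT, hda9-1 and pwr-2). These shares were not limited to the same length range, and a short gene holds a whole peak less easily. The 42 genes have a median length of 1442 bp, against 2399 bp for the 10924. Marked in all 3 libraries were 7 of the 47 genes (14.9%), against 26.1% of all genes. They are LHCA5, LHCA6, LHCB4.1, PSAF, PSBX, PETE1 and PETE2. LHCA5 (AT1G45474), a low-abundance antenna protein of photosystem I, had peaks of its own, with 551, 951 and 751 bp covered in WT, hda9-1 and pwr-2, and 91.83%, 95.1% and 93.88% of each peak inside the gene. PSBX (AT2G06520), a small photosystem II subunit, was covered over 472, 272 and 272 bp by peaks of 3200, 3000 and 3000 bp, of which 14.75%, 9.07% and 9.07% lay in the gene. PETE1 (AT1G76100) was covered over 730, 930 and 730 bp and PETE2 over 792, 592 and 592 bp, and so both plastocyanins carried the mark in each genotype.

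PSBO2 and PSBO1 encode isoforms of 1 protein of the oxygen-evolving complex and differed in H3K14ac. PSBO2 had 1200 bp of cover in WT, and 1000 bp in hda9-1 and in pwr-2, by a peak lying wholly inside the gene (chromosome 3, 18891001 to 18892200 in WT), whereas PSBO1 had no H3K14ac peak in any library. LHCB4.3 showed the reverse of the usual pattern. It had 800 bp of H3K14ac in WT (chromosome 2, 16746201 to 16747000, 29 reads) and 600 bp in hda9-1 (37 reads), with no H3K9ac peak in any library and no H3K14ac peak in pwr-2. The peaks of RCA (AT2G39730), at 1400 bp in WT and 800 bp in hda9-1 and none in pwr-2, also lay wholly inside the gene.

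Between genotypes H3K14ac came and went at similar numbers of photosynthesis genes, with 1 library each and no test. In hda9-1, 6 genes were gained (PSAG, LHCB4.3, LHCB4.2, PSAD1, PSBQ2 and RBCS2B) and 6 lost (PSAK, PSAH2, PSBW, PSBO2, LHCB5 and PSAL), with 10.3% and 4.66% of all genes. In pwr-2, 4 were gained (PSAG, PSBY, PSBR and RBCS1B) and 5 lost (PSAK, PSAH2, PSBO2, LHCB5 and PSAL), with 10.9% and 4.17%. Few of the 47 were marked in WT, and only those could be lost: 6 of 13 were lost in hda9-1 and 5 of 13 in pwr-2, against 14.4% and 12.9% of all genes that could be. Of the 34 that could be gained, 6 and 4 were, against 15.2% and 16.1% of such genes.

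Among the genes lost in both mutants were 3 subunits of photosystem I. PSAH2 was covered by H3K14ac over 871 bp in WT, PSAK (AT1G30380) over 818 bp and PSAL (AT4G12800) over 1161 bp, and all 3 had no H3K14ac peak in either mutant library. The WT peaks held 52, 74 and 68 reads. The H3K14ac peak of PSAK lay mostly outside the gene, with 31.46% of it inside. PSBO2 counts as lost by the rule on gene ends although 1000 bp of it stayed inside a peak in both mutants, and LHCB4.3 counts as gained in hda9-1 although its WT peak was wider. PSAG (AT1G55670), a photosystem I subunit, was covered over 0 bp (WT), 449 bp (hda9-1) and 649 bp (pwr-2), by peaks with 32.07% and 19.09% of their length in the gene.

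Several genes had an H3K14ac peak in a single library. In hda9-1 these were LHCB4.2 with 1123 bp covered, RBCS2B with 671 bp, PSAD1 with 570 bp, and PSAE1 and PSBQ2 with 400 bp each. In pwr-2 they were PSBR (AT1G79040), a small photosystem II protein, with 1009 bp, RBCS1B with 434 bp and PSBY (AT1G67740), another small photosystem II protein, with 400 bp. LHCB5 (AT4G10340), a minor antenna protein, had 394 bp in WT and none in the mutants, and PSBW (AT2G30570) had 511 bp in WT, none in hda9-1 and 911 bp in pwr-2. These peaks held from 24 reads (PSAE1 in hda9-1) to 64 reads (LHCB5 in WT).

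Of 34 other genes of the pathway, 26 (76.5%) were marked by H3K9ac in all 6 libraries, and 7 (20.6%) had no H3K14ac peak in any library. Over all genes these shares were 32.1% and 48.7%. All 9 genes of electron transport and the ATP synthase, and all 8 of the Calvin-Benson cycle, had an H3K14ac peak in at least 1 library. Of 9 genes of chlorophyll synthesis and its regulators, 4 had none (GUN5, GUN4, PORA and PORB). The early light-induced proteins ELIP1 and ELIP2, relatives of the antenna proteins that are known to be induced by strong light, had no peak of either mark in any library.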

How the data were processed

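Peak lists from 9 libraries were used, 6 for H3K9ac and 3 for H3K14ac, and the 9 inputs were not analysed here. The authors mapped reads to TAIR10 with Bowtie and called enriched regions with SICER, per the submitters' processing notes, with versions and thresholds not given in the sources used here. The deposited lists give a position and a whole-number count per peak and library. They have no header, and the count was taken to be of reads because it rose with peak width (Spearman 0.797 to 0.938 over peaks). Titles write "hdac" for libraries whose genotype label is hda9-1.

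Genes came from RefSeq on TAIR10.1, which carries no strand here and another build name, so positions are those of peaks, counted from 1. Shifting the peaks lowered their overlap with genes in 45 of 45 combinations of library and chromosome. H3K9ac peaks of the 6 libraries were merged. Regions with a peak in each were tested with edgeR 4.0.16 (quasi-likelihood, TMM, all 6 libraries in 1 fit, no block), on reads and per covered bp with covered length as an offset. DESeq2 1.42.0 was an alternative. The biological coefficient of variation was 0.1838 on reads and 0.1241 per covered bp. In data simulated for hda9-1 against WT over 8332 regions, the test on reads called 16% of regions raised 1.5-fold and 58% of those lowered 0.5-fold. Every simulated region was given the same spread, so these shares may be higher than the test would reach in the real data. Exact permutation of 2 against 2 libraries cannot go below 0.333 and is not used. Counts limit precision, and reads without molecular identifiers are not independent molecules.

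The 47 genes, the lists and the tests were chosen with earlier results of these data known. Values per library are given for genes that changed H3K9ac state, the 5 highest and 5 lowest in WT density, the 4 largest rises and falls of regions per mutant, the genes with incomplete H3K14ac and the tandem copies. Other genes named were chosen after their values were seen. Across regions, deviations of same-numbered libraries from their genotype means correlated at 0.0804 (WT and hda9-1), 0.173 (WT and pwr-2) and 0.163 (hda9-1 and pwr-2). The labels do not say that a number marks a shared planting, so numbers were not taken to pair libraries. Other rules for a marked gene, other scalings and leaving out each library were tried.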

Additional observations from a re-analysis of the deposited data

Results flagged for a closer look

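LHCA2 (AT3G61470), an antenna protein of photosystem I, differed between the mutants in how much of the gene H3K9ac peaks covered. H3K9ac peaks covered 1487 and 1487 bp of the gene in WT, 1887 and 1887 bp in hda9-1, and 1087 and 1287 bp in pwr-2, so that every hda9-1 library lay above WT and every pwr-2 library below. The means of hda9-1 and pwr-2 differ by 700.0 bp, where peak positions move in steps of 200 bp. Covered length itself was not tested. In the edgeR fit of reads assigned to genes the log2 difference of hda9-1 from pwr-2 was 0.63 (SE 0.139, edgeR adjusted p 0.502). That fit assigns reads by covered length. Over the whole H3K9ac region of LHCA2 the difference was 0.009 on reads and -0.02 per covered bp, and both mutants were slightly below WT on reads, at -0.056 (SE 0.091) in hda9-1 and -0.065 (SE 0.091) in pwr-2.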

How the results depend on the processing

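The medians over the 41 regions kept their sign, from -0.187 to -0.126 in hda9-1 and from -0.144 to -0.065 in pwr-2 over the alternatives that used regions. In the fit over genes the medians of 46 photosynthesis genes were -0.137 and -0.1. Over all 20244 genes of that fit the medians were 0.088 and 0.035, with 41.8% and 45.7% of genes negative. DESeq2 called 154 regions in hda9-1, 220 in pwr-2 and 28 between the mutants, where edgeR called 0 on reads, and none of these held a photosynthesis gene. Per covered bp edgeR called 1 region in each mutant, and 0 with any library of the comparison left out. With a replicate block the counts stayed at 0 on reads and 1 per covered bp, and the medians over the 41 regions were -0.149 and -0.111.

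H3K9ac gains and losses of the 47 genes in hda9-1 (0) became 2 with the upper 75% of peaks by reads per bp and 0 to 1 with a library left out (1 without WT replicate 2 or hda9-1 replicate 2). In pwr-2 (1) they became 0 where a mark needed 50% of the whole gene, 3 with the upper 75%, and 1 to 3 with a library left out (2 without WT replicate 1, 3 without pwr-2 replicate 2). H3K14ac changes fell from 12 to 5 in hda9-1 and from 9 to 3 in pwr-2 with the upper 75%. The shares of all genes gained or lost under these other rules are not given here. The 42 genes marked by H3K9ac throughout became 30 with the upper 75%, while the 10924 protein-coding genes became 5956. The rules for H3K14ac among H3K9ac-marked genes were added after seeing the data. At 50% of the whole gene, 8 genes in WT and 6 in pwr-2 were marked, and with the upper 75%, 5 in WT, 3 in hda9-1 and 4 in pwr-2. The shares were then 10.0% to 20.5%, against 45.4% to 67.3% of protein-coding genes. The cause of these shifts was not tested.

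Region values with a library left out are given only for the largest rises and falls per mutant. Among these, 5 changed sign, and sign changes in the other regions are not given here. LHCB2.3 in hda9-1 ranged from -0.117 to 0.554. LHCA6 ranged from -0.022 to 0.627 in hda9-1 and from -0.09 to 0.558 in pwr-2. In pwr-2, LHCB2.2 ranged from -1.107 to 0.127 and RCA from -0.006 to 0.266. LHCB2.3 turned negative without hda9-1 replicate 1, LHCA6 and RCA without WT replicate 1, and LHCB2.2 positive without WT replicate 2 (0.127) or pwr-2 replicate 1 (0.074). WT depth, the lowest of the H3K9ac libraries, limits what a missing WT peak shows.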
